A study of Mus musculus with 8 samples.

Results

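Immediate early genes are switched on within minutes of a stimulus from factors already present in the cell, and 10 of them are described here: the transcription factor genes Fos, Jun, Junb, Atf3, Egr1 and Egr2, the phosphatase genes Dusp1 and Dusp2, and the short-lived regulators Btg1 and Ier2. The members were picked by name, and all 10 of them were found among the 16115 genes that every plate file lists. They were followed through single enteroendocrine cells, the hormone-producing cells of the gut lining, taken from C57BL/6 mouse intestinal organoids grown with or without the growth factor BMP4. Cells were sorted alive and 1 per well into 384-well plates for SORT-seq, a plate-based method that tags the 3′ end of each transcript with a random identifier.

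Cells came from 3 reporter genotypes, each marking cells by 1 hormone gene: Tac1-Cre (substance P), Gip-Cre (gastric inhibitory peptide) and Gcg-Venus (proglucagon). A hormone reporter marks cells that use that gene, so a sorted pool can hold several hormone types, and the fluorescent allele behind each Cre is not given in the sources used here. There were 2 Tac1, 2 Gcg and 1 Gip plates that each held untreated cells (columns 1 to 6), cells after 24 h of BMP4 (columns 7 to 12) and cells after 4 days of BMP4 (columns 13 to 24). Since each condition had its own columns, condition and place on the plate cannot be told apart. There were 3 more Tac1 plates, 1 with only 24 h cells and 2 with only 4 day cells. Nothing in the labels says that plates of a line came from separate cultures or mice, so each p-value speaks of how far these plates scatter, and that scatter may be technical. The BMP4 dose is not given in the sources used here.

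Signals that enter through MAP kinases, calcium or cyclic AMP reach the promoters of these genes within minutes. The factors SRF and CREB wait there, on sequences named the CArG box and the cyclic AMP response element (CRE). Fos and Jun proteins then pair as the AP-1 factor, Egr proteins bind GC-rich sites, and the Dusp phosphatases remove phosphate from MAP kinases and so close the loop. In gut endocrine cells the same kinase and cyclic AMP routes follow nutrient and hormone receptors, and in many tissues these genes are also known to be switched on while cells are being dissociated and sorted.

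A well counted as a cell when it held at least 2000 transcripts, which kept 1006 of 3072 wells, 30 to 268 per plate. Median depth per kept cell was 2802 to 10052 transcripts across plates. Cells of 1 plate and condition were summed, giving 98166 to 1251853 transcripts per sum. The exception was Tac1 plate 2 at 24 h, with 9 cells and 58706 transcripts, which is described but entered no test. Levels are given in CPM, counts scaled so that each sum's transcripts have the same total, and counting intervals and floors cover counting error only. Enteroendocrine markers were present in every line: 12 such genes summed to 84817 to 85610 CPM on untreated Tac1 plates, 7620 to 13701 on Gcg plates and 12781 on the Gip plate. Enterocyte markers went the other way, with 20734 to 26566 CPM on untreated Gcg plates, 10081 on the Gip plate and 721 to 1483 on Tac1 plates, where 3 to 4 of the 8 markers were at 0. Immune and mesenchyme markers stayed at or under 7.43 CPM in untreated sums. On the plates that hold all conditions the direct BMP target gene Id1 rose by 4.76 ± 0.35 log2 units (SE) at 24 h and by 5.72 ± 0.34 at 4 days (edgeR quasi-likelihood test, adjusted p = 3.5e-06 and 2.1e-07).

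The stretches just before the transcription start are printed for 4 members that the results below turn on. RefSeq promoter windows (GRCm38.p6) were matched for 8 of the 10 members, Egr1 and Ier2 being named only. Capitals mark every match, on either strand, to the full CRE TGACGTCA, its core TGACG (which lies inside a full CRE on each strand), the AP-1 site TGACTCA or the CArG box. Each line runs 5′ to 3′ on the gene's strand and stops at the first annotated exon base. The stretches are chr12:85473640-85473889 (+) for Fos, chr17:26508520-26508722 (−) for Dusp1, chr2:127335909-127336158 (+) for Dusp2 and chr10:67537619-67537868 (+) for Egr2.
Fos: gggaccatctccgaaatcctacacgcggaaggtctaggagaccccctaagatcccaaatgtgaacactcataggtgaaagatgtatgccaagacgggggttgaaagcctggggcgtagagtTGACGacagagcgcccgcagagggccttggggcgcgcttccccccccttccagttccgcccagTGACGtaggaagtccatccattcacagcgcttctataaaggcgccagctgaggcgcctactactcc
Dusp1: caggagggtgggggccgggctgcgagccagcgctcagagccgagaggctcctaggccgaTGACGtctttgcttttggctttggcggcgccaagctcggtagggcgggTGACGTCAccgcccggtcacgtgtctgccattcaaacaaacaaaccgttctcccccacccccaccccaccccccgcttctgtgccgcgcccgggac
Dusp2: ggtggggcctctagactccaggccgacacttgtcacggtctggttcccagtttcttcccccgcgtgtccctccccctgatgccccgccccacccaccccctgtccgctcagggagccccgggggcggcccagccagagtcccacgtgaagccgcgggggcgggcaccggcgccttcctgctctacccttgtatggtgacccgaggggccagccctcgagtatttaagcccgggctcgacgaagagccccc
Egr2: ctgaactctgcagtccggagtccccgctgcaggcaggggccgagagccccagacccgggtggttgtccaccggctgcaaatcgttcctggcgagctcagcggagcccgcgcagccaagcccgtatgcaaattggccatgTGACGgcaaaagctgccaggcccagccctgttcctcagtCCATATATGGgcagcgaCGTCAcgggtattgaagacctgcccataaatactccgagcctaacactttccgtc
The Fos stretch carries the core at -129 to -125 and at -66 to -62, counted from the start. Dusp1 carries a full CRE at -143 to -136 and a further core at -191 to -187. The printed Egr2 stretch carries a CArG box at -72 to -63 between 2 cores. Egr2 has several annotated starts, and 1 of its windows is printed. Its window at chr10:67535249-67535548 held no match to any of these motifs. The window at chr10:67537316-67537615 held another CArG box and no core. The Dusp2 stretch shows no capitals, its single core lying at bases 6 to 10 after the start. The 300-base windows run from 250 bases before to 50 after the start. Over them the core was found in 7 of the 8 members, all but Jun, and in 20.8% of all 32851 promoter windows. A member counted when any of its windows held a match, and the 8 members had 12 windows. The shares over all promoters are per window, so the 2 are not like for like. A full CRE was found in 1 member against 1.79% of all windows, and an AP-1 site in none against 5.20%. A CArG box was found in 1 member, Egr2, which has several windows, against 1.63%. A match describes the letters only.

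In untreated cells the levels of these genes differed by reporter line. Summed over the 10 members, the level was 7328 and 8327 CPM on the 2 Tac1 plates, 1721 and 2360 CPM on the 2 Gcg plates, and 2844 CPM on the Gip plate. That is 7827 ± 706 CPM (SD, n = 2) in the Tac1 and 2040 ± 451 (SD, n = 2) in the Gcg line. Of the 10 members, 6 were lower in the Gcg than in the Tac1 line and 0 were higher (edgeR quasi-likelihood test, adjusted p under 0.05), beside 7.66% of the 9168 genes tested that were lower, 8.79% higher and 16.4% called in either direction. DESeq2 also called 6, beside 672 of the 9168 genes tested, 361 of these lower and 311 higher. The members' median log2 difference was -1.64, and the median over all genes was 0.09. All Tac1 files carry rounded values and mitochondrial genes and the others do not, so line and file kind cannot be told apart. The marker differences given above run along the same division, and their part in the result was not tested.

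**Figure D1:**
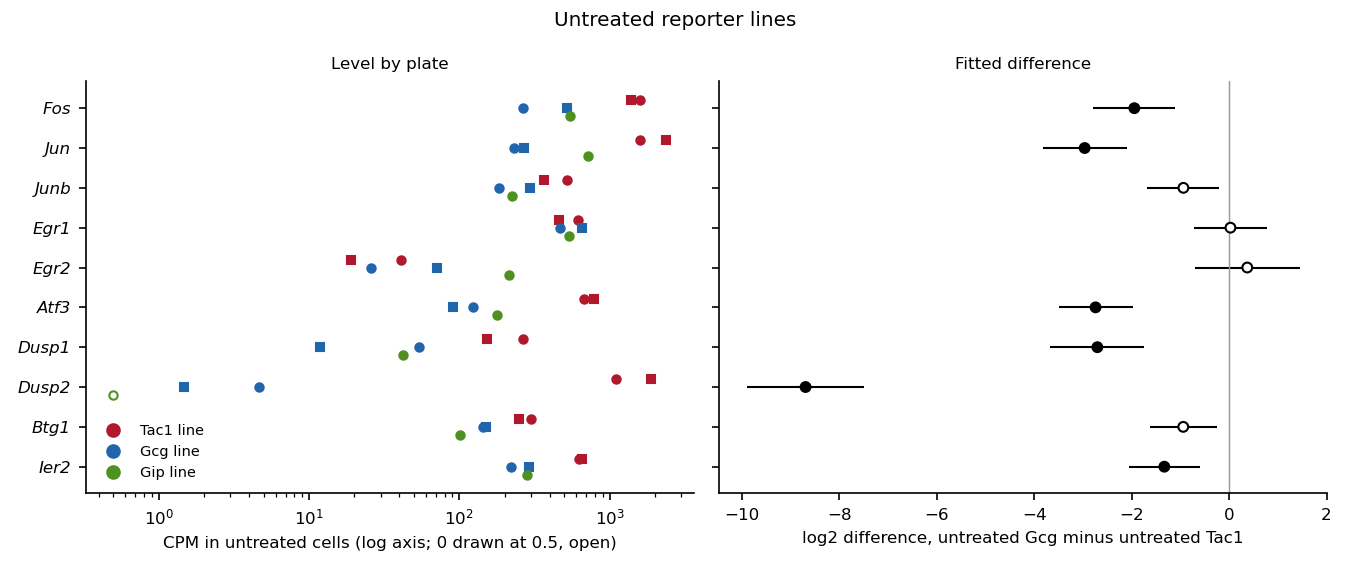
Levels of the 10 members in untreated cells by reporter line, in CPM on a log axis, 1 point per plate. Fos, Jun, Atf3, Dusp1, Dusp2 and Ier2 lie higher on both Tac1 plates than on the Gcg plates, while the points of Egr1 and Egr2 overlap.

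Dusp2, a nuclear phosphatase that inactivates ERK and p38 MAP kinases, showed the widest gap. It is a 4-exon gene at chr2:127336159-127338376 (+). Untreated cells held Dusp2 at 1106 and 1874 CPM on the Tac1 plates, at 4.68 and 1.49 CPM on the Gcg plates, and at 0 on the Gip plate. The Tac1 sums rest on 706 transcripts in 84 cells and the Gcg sums on 5 transcripts in 139 cells, a ratio of 381 (exact 95% counting interval 163 to 1178). On the Gip plate 0 of 545178 transcripts were counted in 63 cells. By the exact 95% counting limit Dusp2 was at least 184-fold lower there than in the Tac1 line, and the ratio to the floor of 3 counts over the group was 227. The fitted difference of Gcg from Tac1 was -8.69 ± 0.59 log2 units (adjusted p = 4.9e-11), and it was called in 16 of 16 alternatives.

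The gap was also present in the share of cells. After thinning each cell to 2000 transcripts, 47 of 68 untreated cells of Tac1 plate 1 held Dusp2 (69.1%, Wilson 95% interval 57.4% to 78.8%). On Tac1 plate 2 it was 12 of 16 cells (75.0%, 50.5% to 89.8%), although 48.1% of all Dusp2 transcripts there sat in 1 cell, without which the level was 1201 CPM. On the other untreated plates the share was 1.56%, 1.33% and 0, the last of 63 cells. A count of 0 in 63 cells allows up to 4.76% of cells with a transcript (3 cells; Wilson upper bound 5.75%), which is not a limit on cells that use the gene. Within Tac1 plate 1, Dusp2 was found in cells of different hormone type, at 1090 CPM in 36 cells led by somatostatin (Sst) and at 1367 CPM in 17 cells led by Tac1. The 11 Sst-led cells of the Gip plate held none, with an upper 95% counting limit of 25.4 CPM. Hormone class was set by the hormone gene with most transcripts in a cell, and no class was tested.

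The AP-1 genes followed the same division. Fos, the inducible AP-1 subunit that pairs with Jun proteins (chr12:85473890-85477273, +, 4 exons), stood at 1592 and 1387 CPM on the untreated Tac1 plates, 265 and 523 on the Gcg plates and 549 on the Gip plate, and was lower in the Gcg line by -1.94 ± 0.41 log2 units (adjusted p = 0.00105). Jun, its main partner (chr4:95049034-95052222, −, a single exon), stood at 1587 and 2376, at 231 and 269, and at 722 CPM in the same order, a difference of -2.96 ± 0.42 (adjusted p = 6.7e-06). Atf3, a stress-induced factor of the same bZIP class (chr1:191170296-191218039, −), stood at 673 and 788, at 123 and 90.7, and at 178 CPM, a difference of -2.74 ± 0.37 (adjusted p = 3.5e-06). All 3 were called in 17 of 17 alternatives, and for each the lowest Tac1 plate lay above the Gcg and Gip plates. Junb, an AP-1 member that can hold Jun activity back, stood at 519 and 365 CPM on Tac1 plates, 184 and 296 on Gcg plates and 224 on the Gip plate (-0.94 ± 0.36, adjusted p = 0.0766). Junb missed the threshold here and passed it in 4 of 17 alternatives, among them without Tac1 plate 2 (-1.20, adjusted p = 0.016) and without Gcg plate 2 (-1.29, adjusted p = 0.0419).

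Egr1 and Egr2, zinc-finger factors that carry the signal on to later genes, did not share this division. Egr1 (chr18:34859823-34864984, +) stood at 612 and 461 CPM on the Tac1 plates, 469 and 654 on the Gcg plates and 534 on the Gip plate, and the interval of the Gcg to Tac1 difference was centred near 0 (0.03 ± 0.37, adjusted p = 0.974). Egr2 (chr10:67535475-67542188, +) stood at 41.2 and 19.2 CPM on Tac1 plates and at 25.8 and 71.4 on Gcg plates, the 19.2 resting on 2 transcripts. The Gip plate, with 213 CPM, lay above all of them and has no replicate plate. Its Egr2 was found in 38.1% of untreated cells thinned to 2000 transcripts (27.1% to 50.4%), and it was uneven among them: 260 CPM in 52 Gip-led cells and 82.6 CPM in 11 Sst-led cells.

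Among the remaining members, Dusp1, a phosphatase that acts on JNK and p38 as well as ERK (chr17:26505590-26562128, −), stood at 267 and 154 CPM on untreated Tac1 plates, 54.0 and 11.9 on Gcg plates and 42.2 on the Gip plate. The difference was -2.70 ± 0.47 log2 units (adjusted p = 1.2e-04), called in 14 of 16 alternatives, and it missed the threshold without Tac1 plate 1 (-2.10, adjusted p = 0.0737) and without cells of at least 1% nuclear RNA (-1.68, adjusted p = 0.25). Ier2, a nuclear regulator of unsettled function (chr8:84661331-84662852, −), stood at 630 and 653 CPM against 222 and 290, with 281 on the Gip plate, and differed by -1.33 ± 0.35 (adjusted p = 0.00845). That Ier2 call is the least settled of the 6: it was lost without Gcg plate 1 (-1.27, adjusted p = 0.0565) and changed sign when cells with at least 1% of nuclear-retained RNA were left out (0.21, adjusted p = 0.852). Btg1, an antiproliferative gene known to be high in resting cells (chr10:96617006-96622809, +), stood at 301 and 249 CPM against 143 and 152, with 101 on the Gip plate (-0.94 ± 0.34, adjusted p = 0.0555). It missed the threshold here and passed it in 7 of 17 alternatives, with -1.36 (adjusted p = 0.0025) without cells over 2% in markers of other cell types. Dusp1 overlaps Ergic1, Jun overlaps Junos and Junb overlaps Prdx2 on opposite strands, and without a stated strand setting such reads cannot be told apart.

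**Figure D2:**
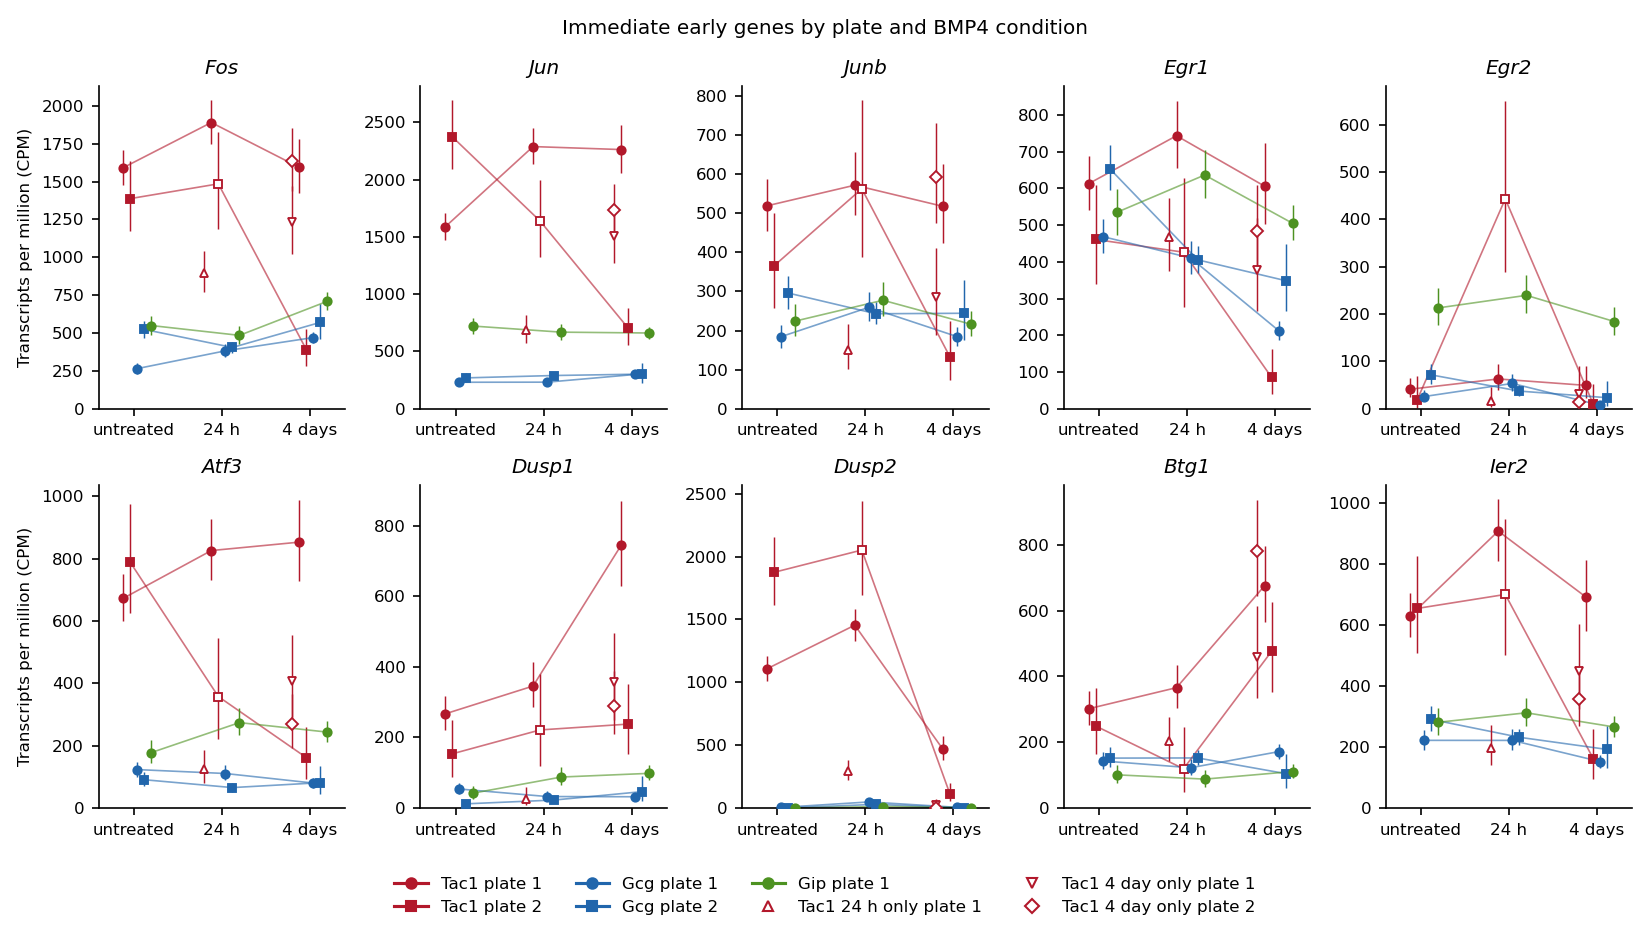
Level of each member in each plate and condition, in CPM, 1 point per sum of cells. The Tac1 points of Dusp2 lie at 1106 CPM and more on the untreated plates and at 469 CPM and less at 4 days, with 24 h points from 296 to 2052 CPM, and the Gcg points lie at 48.3 CPM and less.

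After 24 h of BMP4 none of the members passed the test over the plates holding all conditions. The count was 0 of 10 in edgeR's quasi-likelihood test and 0 of 10 in DESeq2, beside 0.0963% of the 8308 genes tested. At an unadjusted p under 0.05 the edgeR count was 1 of 10 members, beside 214 of the 8308 genes. The members' median log2 difference was 0.01, and the median over all genes lay within 0.01 of 0. Dusp2 was the 1 member with an unadjusted p under 0.05 (1.49 ± 0.61 log2 units, interval 0.19 to 2.78, adjusted p = 1), with higher values on 4 of 4 plates. The other 9 lay between -0.20 and 0.31.

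The 24 h Dusp2 values were 1454 CPM on Tac1 plate 1 against 1106 untreated, 48.3 against 4.68 and 29.2 against 1.49 on the Gcg plates, and 12.1 against 0 on the Gip plate. The 9 cells of Tac1 plate 2 gave 2052 CPM against 1874. On Gcg plate 1 just 2 of 70 cells held all 37 Dusp2 transcripts, 21 and 16 of them. Both cells were rich in transcripts (30142 and 24580) and in Gip (697 and 4549 transcripts) and Cck (1205 and 295), with Tac1 at 0. On Gcg plate 2, 10 of 83 cells held the 36 transcripts and 1 cell 20 of them. Without the top cell of each plate the levels were 21.7 and 13.1 CPM. In the Gcg line alone the difference was 3.55 ± 0.78 (unadjusted p = 0.0012, adjusted p = 0.835), and 0 of 10 members passed in edgeR or in DESeq2, beside 0.0722% of all genes. There 1 of 10 members had an unadjusted edgeR p under 0.05, beside 142 of the 8308 genes tested. The Tac1 line had 1 plate sum at 24 h and so no test.

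The plate with only 24 h Tac1 cells did not repeat the levels of Tac1 plate 1. Its 48 cells held Dusp2 at 296 CPM, Fos at 899, Jun at 691 and Dusp1 at 25.9 (5 transcripts), against 1454, 1890, 2289 and 346 CPM on Tac1 plate 1. Its 10 members summed to 3069 CPM, against 9455 there, so the plates of 1 line and condition stood further apart than the members' pooled 24 h differences.

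After 4 days none of the members passed either, and 4 had 95% intervals that left out 0. In edgeR 0 of 10 were called, as in DESeq2, beside 3.33% of all genes called, 2.41% higher and 0.927% lower. Before adjustment 4 of 10 had an edgeR p under 0.05, beside 1259 of the 8308 genes tested. The 4 were Dusp1 (0.98 ± 0.32 log2 units, adjusted p = 0.128), Btg1 (0.62 ± 0.23, adjusted p = 0.197), Dusp2 (-1.44 ± 0.59, adjusted p = 0.243) and Egr1 (-0.62 ± 0.25, adjusted p = 0.245). The members' median was -0.15, and the median over all genes again lay within 0.01 of 0. The 4 day and 24 h comparisons share their untreated cells. The makeup of the RNA moved along: a list of nuclear-retained RNAs led by Kcnq1ot1, 4 of whose 5 genes are listed, summed to 11347 to 29271 CPM in untreated cells, 14720 to 35845 at 24 h and 31335 to 106542 at 4 days, and its part in the 4 day values was not tested. Cell type markers moved too, with their part not tested. The 12 enteroendocrine genes summed to 84817 and 85610 CPM untreated and to 40538 and 45709 at 4 days on the Tac1 plates, and the 7 goblet genes to 12706 and 2702 CPM untreated and 24452 and 15816 at 4 days on the Gcg plates.

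**Figure D3:**
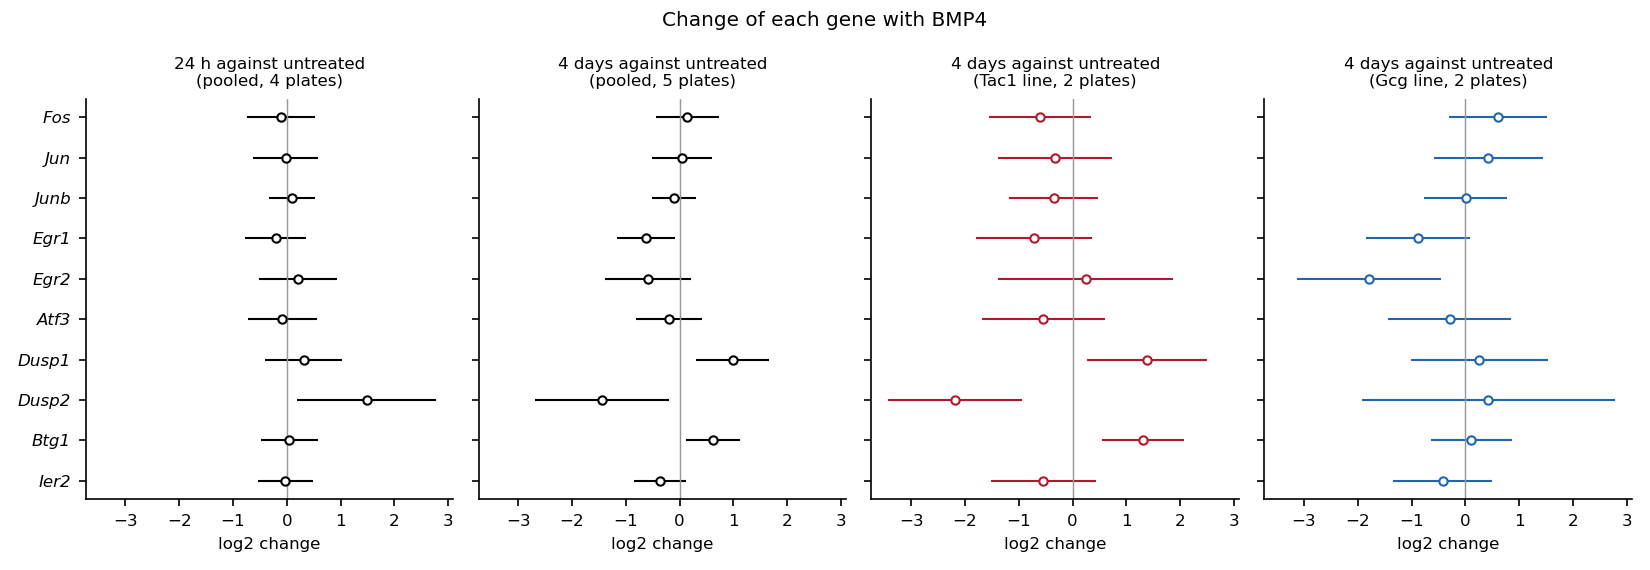
Log2 differences of the 10 members between conditions over the plates holding all conditions, as points with 95% intervals from the edgeR fit. At 4 days Dusp1 (0.98) and Btg1 (0.62) lie above 0 and Dusp2 (-1.44) and Egr1 (-0.62) below, none past the adjusted threshold.

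In the Tac1 line, which held nearly all Dusp2 transcripts, the 4 day values lay under the untreated ones. Dusp2 on Tac1 plate 1 stood at 1106 CPM untreated, at 1454 after 24 h and at 469 after 4 days. On Tac1 plate 2 it stood at 1874, 2052 and 114 CPM, the last from 12 transcripts. The 2 plates of 4 day Tac1 cells alone gave 20.4 CPM (2 transcripts) and 0, the latter with a floor of 20.2 CPM. These plates hold no untreated cells. The plate of 24 h Tac1 cells alone, at 296 CPM, also lay below both untreated plates, unlike the 24 h cells of Tac1 plates 1 and 2. All 4 Tac1 plates at 4 days thus lay below both untreated Tac1 plates, and cells with Dusp2 among cells thinned to 2000 transcripts made up 69.1% and 75.0% untreated and 24.4%, 13.3%, 6.90% and 0 at 4 days (the last of 43 cells, with a Wilson upper bound of 8.20% for cells with a transcript).

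The fitted Tac1-line difference at 4 days was -2.18 ± 0.56 log2 units for Dusp2 (interval -3.43 to -0.94, adjusted p = 0.0999). It passed in 7 of 14 alternatives and lay between -3.01 and -1.98 in all of them. Against 24 h cells over all plates it was -2.93 ± 0.64 (interval -4.28 to -1.57, adjusted p = 0.0633), with lower values on 4 of 4 plates and a call in 7 of 19 alternatives. In that comparison edgeR called 0 of 10 members, beside 0.397% of all genes. DESeq2 called 1 member, which was Dusp2, beside 124 of the 8308 genes tested. At an unadjusted edgeR p under 0.05 there were 2 of 10 members, beside 764 of the 8308 genes. The pooled 4 day difference from untreated cells was less stable, from -2.59 to 1.24 over the alternatives: it was 1.24 without cells of at least 1% nuclear RNA, -0.59 without Tac1 plate 2 and -2.09 without Tac1 plate 1.

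For Dusp1, the other phosphatase, the fitted 4 day difference had the opposite sign. Untreated, 24 h and 4 day cells held 267, 346 and 745 CPM on Tac1 plate 1, and 154, 221 and 238 CPM on Tac1 plate 2. The 4 day plates of the Tac1 line gave 357 and 289 CPM, and the Gip plate 42.2, 87.8 and 98.3. On the Gcg plates Dusp1 was 54.0, 32.5 and 32.0 CPM on plate 1 and 11.9, 22.7 and 46.5 on plate 2, so its 4 day level lay above the untreated one on 4 of 5 plates. All 4 Tac1 values at 4 days lay within or above the untreated range. On Tac1 plate 2 single cells weighed heavily: without each sum's top cell the values were 71.1 CPM untreated and 109 at 4 days. In the Tac1 line the fitted difference was 1.39 ± 0.50 (interval 0.27 to 2.50, adjusted p = 0.239), called in 3 of 14 alternatives.

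Btg1 resembled Dusp1 in the Tac1 line. Its levels were 301, 366 and 675 CPM on Tac1 plate 1 and 249, 119 and 476 on Tac1 plate 2, and the plates of 4 day Tac1 cells gave 459 and 781. All 4 Tac1 values at 4 days lay above both untreated plates. On the Gcg plates it was 143, 122 and 171 CPM and 152, 152 and 105, and on the Gip plate 101, 87.8 and 111, all within a narrower band. The Tac1-line difference was 1.31 ± 0.34 log2 units (interval 0.54 to 2.07, adjusted p = 0.108), called in 3 of 14 alternatives. For the Tac1 line as a whole edgeR called 0 of 10 members and DESeq2 0 of 10, beside 2.01% of all genes, 1.46% higher and 0.554% lower. At an unadjusted edgeR p under 0.05 there were 3 of 10 members, beside 1193 of the 8308 genes tested. Kcnq1ot1 stood at 8417 CPM untreated and 62280 at 4 days on Tac1 plate 1, and at 17829 and 99624 on plate 2, in the same cells. Without cells of at least 1% nuclear RNA the pooled 4 day difference was 0.07 log2 units for Btg1 and 0.35 for Dusp1. That setting left 9 sums in place of 14 and no test within the Tac1 line. Without cells over 2% in markers of other cell types the same differences were 0.84 and 1.45. The part of nuclear RNA in these values was not tested.

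The Egr genes had negative fitted differences at 4 days in the Gcg line. Goblet markers were higher at 4 days on both Gcg plates, as given above, and their part was not tested. They were also higher on the Gip plate (2769 CPM untreated and 4398 at 4 days) and on Tac1 plate 1 (1989 and 2153). On Tac1 plate 2 they were lower at 4 days (2819 and 2102). Egr1 stood at 469 CPM untreated, 411 at 24 h and 213 at 4 days on Gcg plate 1, at 654, 405 and 349 on Gcg plate 2, and at 534, 636 and 505 on the Gip plate. On Tac1 plate 1 it was 612, 743 and 606 CPM and on Tac1 plate 2 it was 461, 426 and 85.6, so 5 of 5 plates had a lower 4 day value, by little on Tac1 plate 1 and the Gip plate. Egr2 stood at 25.8, 53.4 and 7.19 CPM on Gcg plate 1 and at 71.4, 37.2 and 23.2 on Gcg plate 2, the last from 4 transcripts. In the Gcg line the differences were -1.80 ± 0.60 log2 units for Egr2 (unadjusted p = 0.014, adjusted p = 0.556) and -0.88 ± 0.43 for Egr1 (adjusted p = 0.742). There, too, edgeR and DESeq2 called 0 of 10 members, beside 0.277% of all genes, 0.0843% lower. An unadjusted edgeR p under 0.05 was found for 1 of 10 members, beside 575 of the 8308 genes tested. A single 24 h sum stood out for Egr2, the 9 cells of Tac1 plate 2, with 443 CPM and 327 CPM without its top cell.

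The pooled 4 day differences of Fos, Jun, Junb, Atf3 and Ier2 lay between -0.37 and 0.14 log2 units, with adjusted p-values of 0.501 and above. The plates were not alike beneath that average. On Tac1 plate 1 Fos stood at 1592 CPM untreated and 1594 at 4 days, Jun at 1587 and 2263, and Atf3 at 673 and 853. On Tac1 plate 2 the same genes stood at 1387 and 390, at 2376 and 705 and at 788 and 162 CPM, in 16 cells each. The 2 plates of 4 day Tac1 cells lay nearer to the first, at 1234 and 1638 CPM for Fos and 1509 and 1739 for Jun. Junb spanned 133 to 592 CPM and Ier2 152 to 690 CPM over all sums of 4 day cells.

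Whether the Tac1 and Gcg lines differed in their 4 day differences was tested directly. Both edgeR and DESeq2 called 0 of 10 members, 1 of 10 having p under 0.05 before adjustment, beside 0.0% of the 8308 genes (753 at an unadjusted p under 0.05, and 22 genes called by DESeq2). Gcg minus Tac1 was -1.20 ± 0.48 log2 units for Btg1 (adjusted p = 0.539), 2.61 ± 1.25 for Dusp2 (adjusted p = 0.571), -2.04 ± 0.95 for Egr2 (adjusted p = 0.563) and 1.21 ± 0.59 for Fos (adjusted p = 0.575). With 2 plates a line these intervals are wide, and the Gcg side of Dusp2 rests on 5 untreated and 7 treated transcripts.

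**Figure D4:**
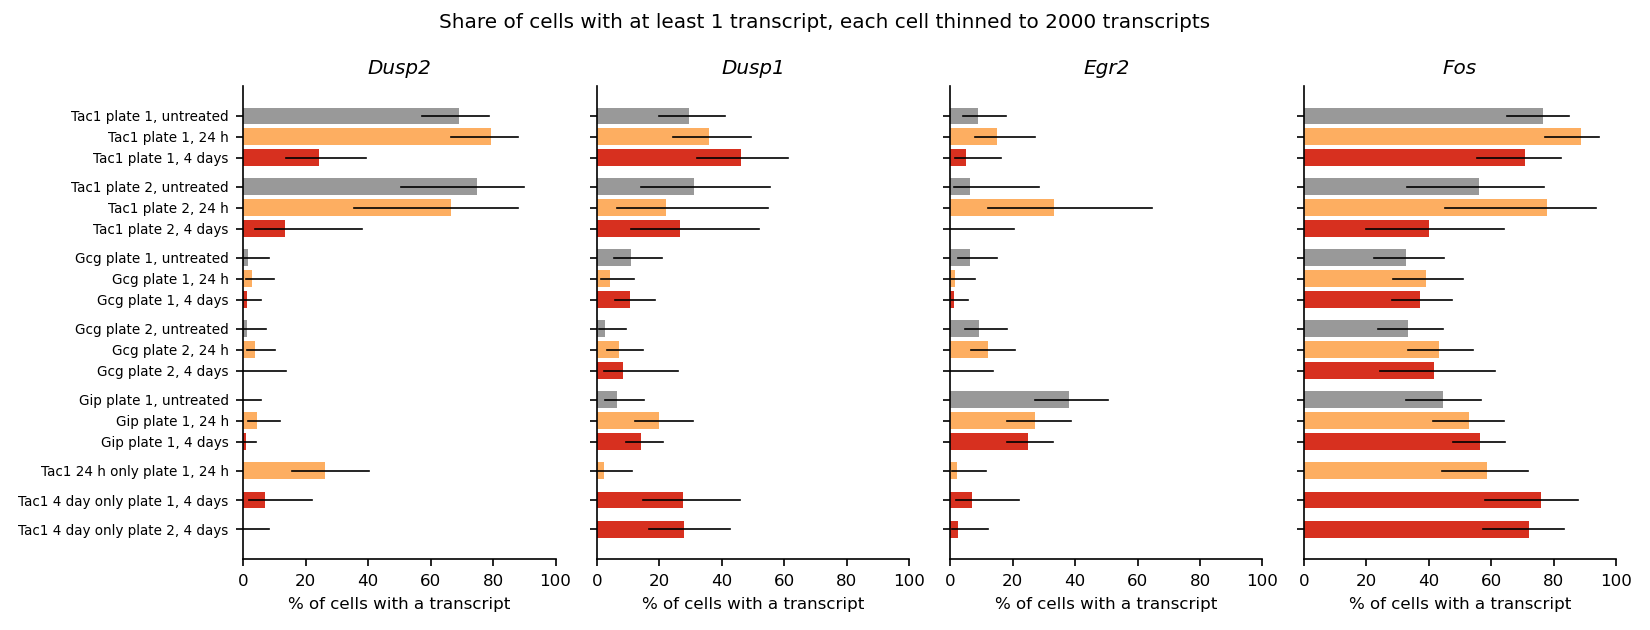
Percent of cells with at least 1 transcript of Dusp2, Dusp1, Egr2 and Fos after thinning each cell to 2000 transcripts, by plate and condition. Dusp2 is found in 69.1% and 75.0% of untreated cells on the Tac1 plates and in at most 4.29% of cells in any sum of the Gcg and Gip plates.

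Per untreated cell, the summed members were highest on the Tac1 plates. A cell thinned to 2000 transcripts held a median of 13 transcripts of the 10 members on untreated Tac1 plate 1, 9.5 on Tac1 plate 2, 2 and 4 on the Gcg plates and 5 on the Gip plate. At 4 days the medians were 14, 5, 2.5, 2 and 5 in that order. The share of cells with any member transcript was lower at 4 days by 7.67 percentage points on average (-7.67, SD 8.59, n = 5 plates, higher on 1), which an exact two-sided sign-flip permutation test over plates gave p = 0.125, the smallest possible being 0.0625. At 24 h it was 0.755 points higher (SD 6.86, n = 4, exact permutation p = 1, smallest possible 0.125). These sizes depend on depth: thinned to 1000 or 4000 transcripts or not thinned, the 4 day difference was -8.96, -1.30 or -3.45 points and the 24 h difference 4.42, 3.26 or 1.25 points, with exact permutation p-values of 0.25 and above. Within the 4 day wells, columns 19 to 24 against 13 to 18 gave a mean log2 ratio of 0.0738 for the summed members (SD 0.183, n = 5, higher on 3 plates, exact permutation p = 0.438), the smallest possible being 0.0625. In the share of cells with any member transcript the same columns differed by -5.91 percentage points (SD 8.28, n = 5, higher on 1 plate, exact permutation p = 0.125).

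Within a sum, cells with more of 1 member tended to hold more of the others, least so for Btg1. Over 877 cells thinned to 2000 transcripts, with plate and condition means removed, the 45 pairs had a median Pearson r of 0.165 (-0.011 to 0.360). The cells share plates, well position and depth, and r is given as a description. The closest pairs were Fos with Egr1 (0.360), Fos with Ier2 (0.342) and Fos with Jun (0.329). Fos and Jun were closer in 202 Tac1 cells (0.490) than in 675 Gcg and Gip cells (0.239), where both are also lower in level. Dusp1 and Dusp2 had r = 0.232, and the pairs of Btg1 were the loosest, none above 0.114. For scale, other genes had a median r of 0.0512 with the members' summed count and a 99th percentile of 0.206.

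**Figure D5:**
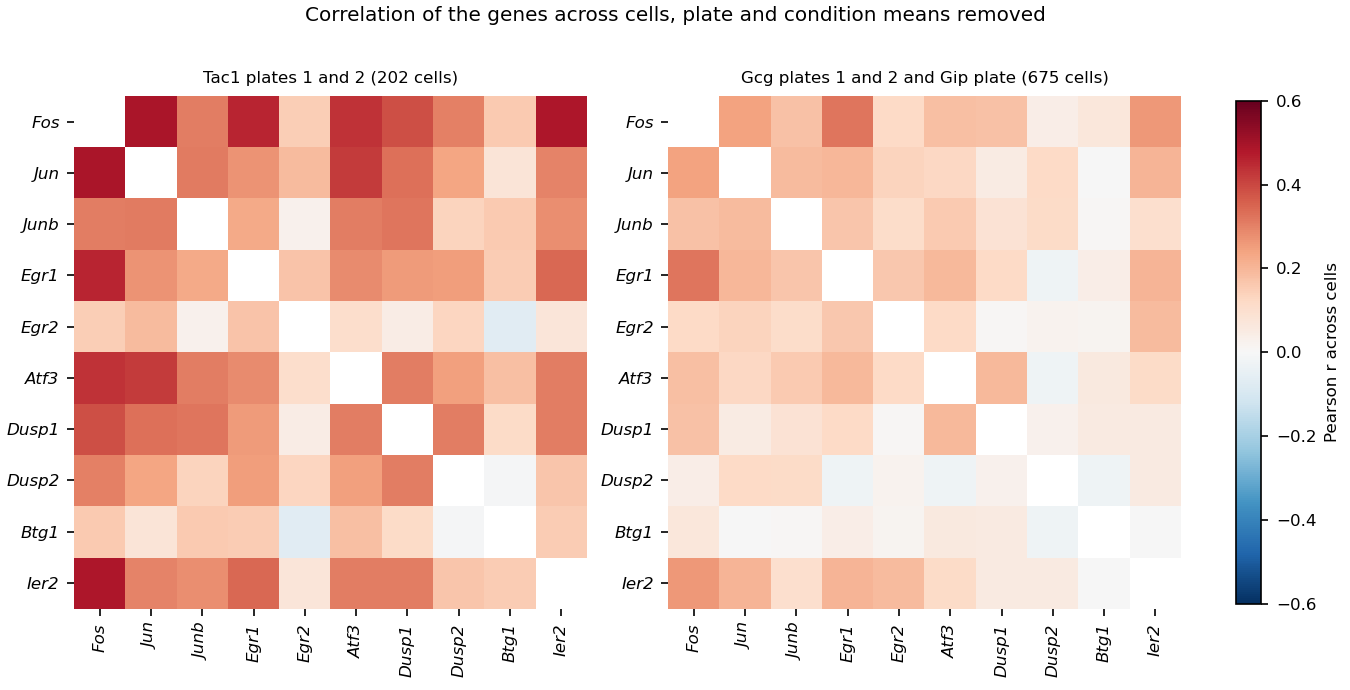
Pearson r between members across cells thinned to 2000 transcripts after removing plate and condition means, for 202 Tac1 cells and for 675 Gcg and Gip cells. The highest value is that of Fos with Jun among Tac1 cells (0.490) and of Fos with Egr1 among Gcg and Gip cells (0.320). Over all 877 cells together the highest was 0.360, and no pair of Btg1 was above 0.114.

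The non-members whose counts followed the members' sum most closely from cell to cell were mostly further immediate early genes. Among the 8 highest of 3155 candidates were Btg2 (r = 0.465), Fosb (0.394), Actg1 (0.366), Nr4a1 (0.335), Rasd1 (0.334), H3f3b (0.306) and Neat1 (0.306). Btg2 is an antiproliferative relative of Btg1, Fosb a partner of Jun and Nr4a1 an inducible nuclear receptor. Across the 14 plate sums, with plate means removed, other genes led: Pofut2 (r = 0.956), Appl2 (0.947), Srf (0.947), Ubr3 (0.943) and Ep300 (0.942) followed the members' mean z-score most closely among 4458 candidates. Srf encodes the factor that binds the CArG box and Ep300 a histone acetyltransferase. Members themselves, each being part of that mean, ranged from 0.949 (Atf3) to -0.361 (Btg1), with Dusp1 at -0.091, so Btg1 and Dusp1 did not follow the others across sums. The summed members changed most at 4 days on Tac1 plate 2, to 0.297 of the untreated level in 16 cells. How far the r values across sums rest on that 1 sum was not tested.

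Related genes were read from lists put together for this tissue. Of 34 further immediate early genes 27 were tested at 4 days; 2 were higher and 1 lower, beside 2.41% and 0.927% of all genes, with a median of 0.04 log2 units. The 3 were Nfkbia, the inhibitor of NF-kB (1.41 ± 0.21, adjusted p = 0.00225), Klf4, a factor of differentiated epithelium (2.16 ± 0.46, adjusted p = 0.0172), and Nr4a1 (-1.50 ± 0.37, adjusted p = 0.0388). At 24 h edgeR and DESeq2 called 0 of these 27, beside 8 and 18 of the 8308 genes tested. An unadjusted edgeR p under 0.05 was found for 2 of the 27, beside 214 of the 8308 genes. Among 9 heat shock genes 1 was higher at 4 days, the small chaperone gene Hspb1 (4.28 ± 0.64, adjusted p = 0.00259).

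The genes around the MAP kinase loop passed no test in edgeR at 4 days. For scale, of all 8308 genes tested there edgeR called 277 and DESeq2 371, and 1259 had an unadjusted edgeR p under 0.05. Of 7 tested Dusp and ERK feedback genes edgeR called 0 and DESeq2 1, with 1 at an unadjusted p under 0.05, which was Dusp18 (-1.12 ± 0.30, adjusted p = 0.0537), while Dusp6, an ERK-specific phosphatase, stood at -0.39 log2 units and Dusp10, a JNK and p38 phosphatase, at 0.52. Of 15 kinases and factors upstream edgeR called 0 and DESeq2 1, with 3 at an unadjusted p under 0.05, among them Mapk3, the ERK1 gene (0.55 ± 0.17, adjusted p = 0.0973). Of 3 tested AP-1 partners and Egr co-repressors, and of 3 BTG/TOB relatives, both tools called 0, with 1 and 0 at an unadjusted p under 0.05. Between untreated lines the further immediate early genes went both ways, 5 of 28 higher and 7 lower in the Gcg line, beside 8.79% and 7.66% of all genes. Lower were Sgk1 (-3.57 log2 units), Klf2 (-2.51), Per1 (-2.48), Nr4a1 (-2.45), Fosb (-1.81), Arc (-1.62) and Mafk (-1.24), while Ier5, Socs3, Klf10, Nfkbia and Egr3 were higher. Dusp8 was lower too (-1.83 ± 0.43, adjusted p = 0.00299), the 1 call among 7 Dusp and ERK feedback genes.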

How the data were processed

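The authors deposited 1 table per plate of expected counts per gene and well: random identifiers were counted and corrected for identifier collisions, so values need not be whole. Inverting the correction with 4096 identifiers gave whole numbers (within 0.01) for 99.97% to 100.0% of nonzero values per plate. The labels' protocols give an identifier too short for that number, which was not resolved. The submitters' processing notes name BWA 0.6.2-r126 and the build mm10. How genes were annotated and whether strand was used in counting is not given in the sources used here. Libraries were SORT-seq, read as 75-base pairs, per the labels' protocols.

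Spike-in and mitochondrial rows were left out, and 16115 genes listed in all files were kept. Wells under 2000 transcripts were left out; no doublet caller was run, wells being sorted as single cells. All plates use the same 384 well barcodes by design. Counts were summed over at least 10 cells of a plate and condition, rounded after summing, and tested with edgeR 4.0.16 (R 4.3.3; TMM, filterByExpr, quasi-likelihood F test, plate as block, Benjamini-Hochberg over all genes tested, called under 0.05). With condition means removed, sums from 1 plate had r of 0.365 to 0.731 over 13 pairs, and sums from different plates -0.732 to 0.778 over 78 pairs. Line means were not removed, so these r also hold differences between lines and cannot show pairing by plate alone. Plates pair the conditions by design. Lines were compared in untreated sums without a block. The single Gip sum had its own term and added nothing to the spread, which came from the Tac1 and Gcg plates. DESeq2 1.42.0 was an alternative. On simulated counts for the 4 day comparison (8001 genes), 92.5% of 4-fold and 33.7% of 2-fold changes were recovered, 86 and 33 genes. Beside them stood 17 false calls, and 4 more at 24 h, where no change was put in. Gene positions are from GENCODE M21 (mm10).

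The members and the lists were chosen with earlier results of these data known. Related genes were named if they passed in the pooled 24 h or 4 day comparison, or else by smallest p at 4 days, up to 4 per list; those named between untreated lines are all that passed there in the list, chosen after their values were seen. Genes alike in pattern were the highest by r, 8 across cells (detected in at least 10% of cells) and 5 across sums (average log2 CPM of at least 5), predicted genes and ribosomal proteins left out. One of the 8 is not reported here.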

Additional observations from a re-analysis of the deposited data

How the results depend on the processing

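The count of members called moved in these alternatives. At 24 h it was 1 with no filter on low genes (Dusp2, higher), and 1 in the Gcg line alone under the same setting. At 4 days it was 2 with no filter and 2 after thinning cells (Dusp1 higher, Dusp2 lower), 3 without cells over 2% in markers of other cell types (Btg1 also higher), and 0 to 1 when each plate was left out in turn (Dusp1 without Gcg plate 1). For 4 days against 24 h it was 1, Dusp2 lower, with DESeq2, with no filter, at 1000 transcripts per cell, at 5 cells per sum, after thinning and without cells of other types, and 0 to 1 with 1 plate left out (1 without Gcg plate 1). In the Tac1 line at 4 days it was 1 with no filter, 1 at 1000 transcripts, 3 after thinning, 3 without cells of other types, 0 to 3 with 1 plate left out (3 without Gcg plate 1, 1 without Gcg plate 2), and 1 with the single-condition plates added and no replicate block. In the Gcg line at 4 days it was 1 without cells of other types (Dusp1 higher, 2.23 log2 units). Ier2 between untreated lines reversed to 0.21 without cells of at least 1% nuclear RNA; the cause of these shifts was not tested. Between untreated lines the count, 6, ranged from 4 to 8: Btg1 was gained in 7 and Junb in 4 of 17 alternatives, Dusp1 and Ier2 were lost in 2 each of those that tested them. The plate position value was -5.91 percentage points when shares of cells were used, and the median r between members was 0.226 without thinning.

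Without the replicate block 0 members were called in each comparison that has one, and all genes called were 4 at 24 h, 13 at 4 days, 0 at 4 days against 24 h, 227 in the Tac1 line and 43 in the Gcg line at 4 days. Calls over all genes ranged from 3 to 46 at 24 h, 8 to 653 at 4 days, 0 to 323 for 4 days against 24 h, 129 to 493 in the Tac1 line, 0 to 30 and 6 to 168 in the Gcg line, 0 to 113 for the difference between lines and 485 to 1820 between untreated lines. Leaving out cells of at least 5% nuclear RNA was chosen after seeing the data. Some alternatives left too few sums for the tests within a line and gave no value there. Depth limits the low members: Dusp2 outside the Tac1 line and Egr2 outside the Gip line rest on few transcripts.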
